A study of Mus musculus with 4 samples.

Results

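Both arrays of long-term cultured DKmix cells were set against both arrays of freshly transduced cells, to describe which genes separated the 2 kinds of culture whatever array was taken for each. The 4 mouse samples gave 1 array each: β-catenin day 3 and eGFP day 3, collected 3 days after retroviral transduction, and DKmix at day 50 and day 300. All 4 cultures began as lineage-negative, Sca-1-positive, c-kit-positive bone marrow cells (LSK), the marrow fraction where blood-forming stem cells are enriched. The eGFP virus encodes a fluorescent marker protein, and DKmix is the name given to LSK cells that received the β-catenin virus and were then cultured for 50 or 300 days. All 4 shared one medium, IMDM with serum, to which IL-3, IL-11, SCF and Flt3 were added. The DKmix side therefore differed from the day 3 side in time in culture, and from the eGFP array also in virus. Neither the number of animals or cultures behind an array nor whether DKmix descends from 1 clone was given in the sources used here. The study asked which genes, transcription factors above all, accompany β-catenin-driven immortalization of blood stem cells.

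A gene counted as higher on DKmix when the lower of the 2 DKmix values was at least 2-fold above the higher of the 2 day 3 values, and as lower when the reverse held. This nearest-array fold is called the gap. Of 18193 genes with a probe set annotated to 1 symbol, 15481 exceeded the background floor, a signal of 48.3, on at least 1 array. Of these, 435 genes (2.81%) were higher on both DKmix arrays and 423 (2.73%) were lower. Counts within the gene lists below are to be read beside these 2 shares. The lists were chosen with earlier results of these data known, so a count above a share is no test of a list. Without a minimum gap, 2384 genes (15.4%) had both DKmix values above both day 3 values, 2558 (16.5%) had both below, and 10539 overlapped or tied. The 2 arrays of a side differ in virus or in day and are not replicates, so no test was made. An exact permutation of 2 arrays against 2 cannot go below a two-sided p of 0.333. The spread is given instead as the range within each side, whose median was 0.43 log2 units on the day 3 side and 0.56 on the DKmix side. The gap was wider than the range within either side for 363 of the 435 higher genes and 349 of the 423 lower genes. These genes were chosen by their gap, which favours that outcome, so the counts are no measure of reliability. For 84 of the higher genes both day 3 arrays, and for 122 of the lower genes both DKmix arrays, were at the floor, which hides the range of that side. Just inside and outside the 2-fold limit lay Ptpn23 (2.01-fold) and Pik3ip1 (1.999-fold) among genes higher on DKmix, and Rnaseh2c (2.001-fold) and B3gnt7 (1.998-fold) among genes lower. Leaving out the β-catenin day 3, eGFP day 3, DKmix day 50 or DKmix day 300 array leaves fewer values to clear, and gave 886, 770, 1203 and 1460 genes higher and 1103, 1000, 1006 and 1182 lower, in that order.

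The 4 arrays were not alike in RNA quality. The ratio of 3′ to 5′ signal for Gapdh, which grows as RNA is degraded or cRNA shortened, was 1.18 on β-catenin day 3, 4.14 on eGFP day 3, and 4.96 and 1.06 on DKmix at day 50 and day 300. By this ratio each side holds 1 low and 1 high array. Other controls did not give this split. For the transferrin receptor the ratio was high on DKmix day 50 alone (12.3, against 2.29 to 3.05). For Actb it was also highest on DKmix day 50, at 3.41. The Actb ratio was 1.32 on β-catenin day 3, 1.83 on eGFP day 3 and 1.20 on DKmix day 300. The part of RNA quality in the counts was not tested. The spiked hybridisation controls, which the array maker's protocol adds in equal amount, were on average 0.79 log2 units brighter on the DKmix arrays (9 probe sets). Scaling the arrays to these controls moved the median difference of all genes from -0.01 to -0.51 log2 units, and gave 146 genes higher and 1562 lower. All values below are therefore relative to the bulk of genes, and the value on the control scale is given where a direction turned.

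**Figure D1:**
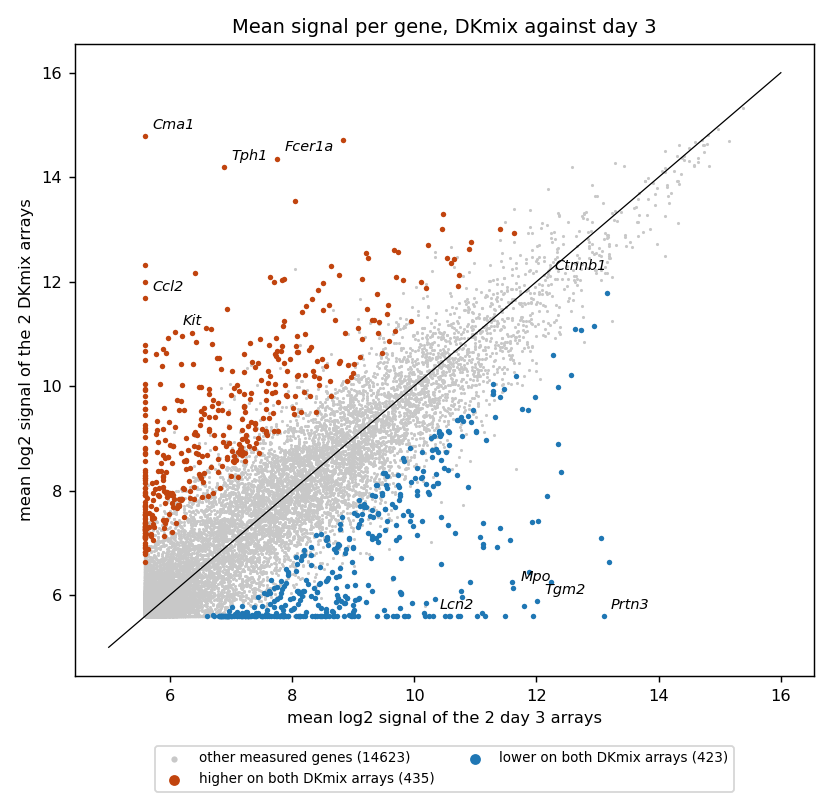
Mean log2 signal of each measured gene on the 2 day 3 arrays (horizontal axis) against that on the 2 DKmix arrays (vertical axis), with 435 genes higher on both DKmix arrays in red, 423 lower in blue and the line of equality in black. The vertical and horizontal edges at the lower left are genes at the floor on 1 side; Cma1 lies farthest above the line and Ctnnb1 lies near it.

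Ctnnb1 itself, the gene for β-catenin, which links cadherins to the cytoskeleton and carries the canonical Wnt signal to TCF/LEF factors in the nucleus, was checked first. Its signal was 4492 on β-catenin day 3, 4732 on eGFP day 3, and 6034 and 3132 on DKmix at day 50 and day 300. The sides overlapped for all 3 of its probe sets. Whether these probe sets match the viral copy was not given in the sources used here, so the signal does not check the label. Among 37 measured Wnt pathway components, 1 was higher on DKmix and 0 were lower. That is 2.70% higher, near the 2.81% of all genes. That gene was Ctnna1, for the α-catenin that binds β-catenin at cell junctions, with signals of 845 and 494 at day 3 and 2877 and 2112 in DKmix. The list's median difference was 0.27 log2 units, and -0.43 with arrays scaled to the hybridisation controls. Of 28 measured β-catenin/TCF targets, 1 was higher (3.57%, also near the share of all genes) and 0 lower, with a median difference of -0.13. The higher gene was Jun, an AP-1 subunit, with 165 and 45.6 at day 3 and 1320 and 776 in DKmix. Myc, a target often used as a readout of the pathway, overlapped at 1276 and 633 against 400 and 641.

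Mast cells arise from bone marrow progenitors and store histamine, serotonin, heparin and proteases in granules. They depend on SCF acting through its receptor Kit, release their granules when antigen crosslinks IgE on the high-affinity receptor FcεRI, and are known to grow out of bone marrow cultures that contain IL-3 and SCF. Neutrophils, macrophages, dendritic cells and basophils are among the other myeloid cells such cultures can hold.

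Genes of mast cell granules, receptors and mediators were 5 of the 15 with the largest gaps above day 3 (Cma1, Tph1, Fcer1a, Slc18a2 and Ddc). Of 11 measured granule proteases, 4 were higher and 2 lower on DKmix, with a median difference of 3.42 log2 units against -0.01 over all genes. Cma1, the mast cell chymase, had the largest gap of all genes. Its signal was 6.9 and 17.3 on the day 3 arrays, both below the floor, and 46986 and 16866 on DKmix day 50 and day 300, at least 349-fold apart. Cpa3, carboxypeptidase A of the same granules, gave 1560 on β-catenin day 3, 135 on eGFP day 3, and 45531 and 15951 on DKmix at day 50 and day 300. Its nearest arrays were 10.2-fold apart, and the β-catenin array lay above the eGFP array. The tryptases Tpsb2 and Tpsg1 were also higher. Tpsb2 gave 11.6 and 111 at day 3 against 5820 and 683, and Tpsg1 gave 8.4 and 28.9 against 5748 and 545. In both, the day 50 array was several times brighter than the day 300 array. The 2 lower genes were Ctsg, for cathepsin G, which neutrophils store as well, and Mcpt8, a basophil protease. Ctsg gave 4449 and 16275 at day 3 and 385 and 14.1 in DKmix, and Mcpt8 gave 1095 and 1023 against 370 and 54.1. Gzmb, for granzyme B, overlapped at 1462 and 25.4 against 25886 and 898, and the connective tissue chymase gene Mcpt4 overlapped at 34.1 and 148 against 490 and 27.8. Between the 2 disjoint pairs of arrays the list's median was 0.14 for DKmix day 300 minus β-catenin day 3 and 5.71 for DKmix day 50 minus eGFP day 3.

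Of 25 measured mast cell receptors and their signalling partners, 13 were higher and 1 lower, with a median difference of 1.59. Fcer1a, the IgE-binding chain of FcεRI, gave 724 and 64.4 at day 3 and 28507 and 15388 in DKmix, a gap of 21.3-fold. Kit gave 82.9 and 55.8 at day 3 and 3460 and 1263 in DKmix, a gap of 15.2-fold. The starting cells were labelled c-kit-positive, yet both day 3 values lay less than 2-fold above the floor. The other 2 chains of the IgE receptor were higher too. Ms4a2, the β chain, gave 811 and 87.3 against 19763 and 7153, and Fcer1g, the signalling γ chain shared with other Fc receptors, gave 1606 and 2362 against 6134 and 7909. Downstream of the receptor, the adaptors Lat, Lat2 and Lcp2 had gaps of 4.34-fold, 3.76-fold and 2.18-fold. The signalling chains of the IL-3 receptor, Csf2rb2 and Csf2rb, had gaps of 5.54-fold and 2.12-fold. Il3ra, for a further chain of that receptor, overlapped at 120 and 48.4 against 209 and 108. In all, 7 of the list overlapped, among them Il4ra (653 and 278 against 630 and 1434) and Itgae (112 and 161 against 133 and 52.8). Cd200r3, a paired receptor of mast cells and basophils, gave 154 and 44.4 against 2195 and 1536. Rgs13, which dampens G protein signals, was below the floor on both day 3 arrays and at 461 and 1046 in DKmix. Itga2b and Itgb7, integrin chain genes counted in this list and again among the adhesion genes below, had gaps of 4.78-fold and 2.11-fold. The lower gene was Pilra, an inhibitory myeloid receptor, at 139 and 490 against 60.3 and 13.5. On the scale of the hybridisation controls 8 of the list were higher and 3 lower, and the median was 0.80.

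Of 18 measured genes for mast cell mediators and their storage, 7 were higher and 0 lower, with a median difference of 1.20. Tph1, which starts serotonin synthesis outside the brain, gave 277 on β-catenin day 3 and 51.0 on eGFP day 3, against 20674 and 16988 on DKmix at day 50 and day 300. Its gap was 61.4-fold, with the 2 DKmix arrays close together. Ddc, whose enzyme turns 5-hydroxytryptophan into serotonin, was below the floor on both day 3 arrays and at 844 and 2456 in DKmix. Slc18a2, the transporter that loads serotonin and histamine into vesicles, gave 50.3 and 67.5 against 1419 and 1258. Genes for both steps of serotonin synthesis and for its loading were thus each higher on both DKmix arrays. Maob, an amine-degrading enzyme, was below the floor at day 3 and gave 4273 and 220 in DKmix. Hpgds, the prostaglandin D2 synthase of mast cells, gave 124 and 68.4 against 441 and 375. Heparin-making enzymes were among the higher genes: Ndst2 and Hs6st1 had gaps of 4.33-fold and 3.46-fold. Hs6st2, a second 6-O-sulfotransferase, gave 82.0 and 5.9 against 1813 and 2051, and Papss2, which makes the sulfate donor for such enzymes, gave 9.5 and 152 against 3459 and 6094. Hdc, the histamine-forming enzyme, did not follow: it gave 234 and 82.4 at day 3, and 23 and 1514 on DKmix at day 50 and day 300.

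Among 21 measured transcription factors of mast cells and erythroid cells, 5 were higher and 0 lower. Mitf, a basic helix-loop-helix factor required for mast cells and pigment cells, gave 139 and 41.3 at day 3 and 2533 and 1706 in DKmix, a gap of 12.3-fold. Gata2, a zinc finger factor of stem cells and mast cells, gave 836 and 227 against 4648 and 4279, a gap of 5.12-fold. Gata1, needed for red cells, platelets and mast cells, gave 181 and 266 against 1612 and 1325, a gap of 4.98-fold. The remaining 2 were Tal1, a partner of the GATA factors, and Ikzf2, of the Ikaros family, with gaps of 3.57-fold and 2.47-fold. The 2 DKmix arrays lay close together for these genes, above both day 3 arrays. The median of this list was 0.43, but -0.36 on the scale of the hybridisation controls, where 3 genes were higher and 3 lower. Klf1, the erythroid factor of the list, overlapped at 50.0 and 303 against 36.9 and 83.8.

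Several of the genes with the largest gaps belong to none of these lists' classic markers. Avil, an actin-binding protein of the villin family, gave 27.2 and 37.5 at day 3, below the floor, and 5703 and 4621 in DKmix, at least 95.7-fold apart. Igfbp5, a binding protein of insulin-like growth factors, gave 47.9 and 2.8 against 7898 and 2107. Ccl2, which attracts monocytes, gave 44.7 and 20.5 against 2786 and 3909, a gap of at least 57.7-fold. None of these 3 genes exceeded the floor at day 3. Ptprg, a receptor tyrosine phosphatase, Cobl, an actin nucleator, and Gask1b, a Golgi protein, had gaps of at least 21.9-fold, at least 17.3-fold and 18.2-fold. Mfge8, which links dying cells to phagocytes, had a gap of 16.9-fold, and P2rx7, an ATP-gated channel, one of 16.5-fold. One of the 3 P2rx7 probe sets had a mean difference of the other sign, with overlapping sides. Genes for granule secretion were close behind: Rab27b, a GTPase that docks granules, gave 86.8 and 107 against 2846 and 1736, and its effector gene Sytl2 was below the floor at day 3 and at 1045 and 653 in DKmix. In the list of 29 measured exocytosis genes 2 were higher, 2 lower (Vamp8 at 2.41-fold and Lyst at 3.03-fold) and 18 overlapping. The list's median was 0.36, and -0.42 on the scale of the hybridisation controls. Rab27a overlapped, with lower DKmix means, at 255 and 711 against 148 and 260. Stx3 overlapped, with higher DKmix means, at 383 and 82.1 against 2579 and 259.

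**Figure D2:**
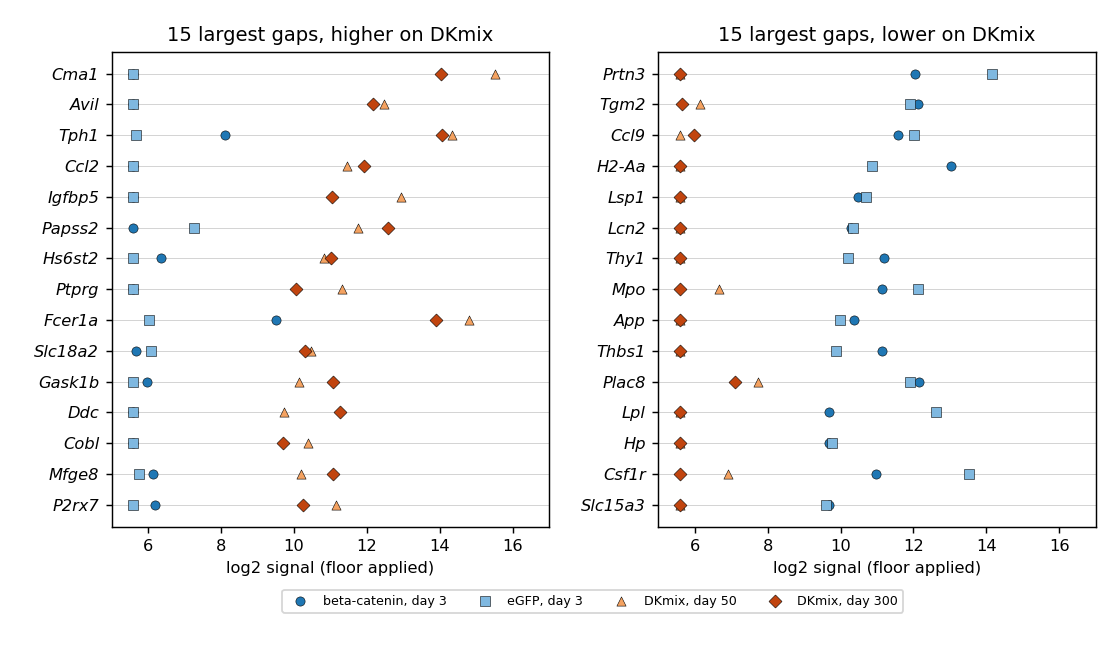
Log2 signal with the floor applied (horizontal axis) on each of the 4 arrays for the 15 genes with the largest gap in each direction, ordered by the gap, from Cma1 (at least 349-fold) and Prtn3 (at least 88.1-fold) downwards. Points at 5.6 are at the floor, where the 2 arrays of a side cover each other.

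Of 29 measured neutrophil granule genes, 14 were lower on DKmix and 0 higher, with a median difference of -2.33. On the scale of the hybridisation controls 16 were lower. Prtn3, for proteinase 3, gave 4254 on β-catenin day 3 and 18175 on eGFP day 3, and 5.6 and 32.7 in DKmix, below the floor and at least 88.1-fold apart. Mpo, for myeloperoxidase, gave 2231 and 4426 against 101 and 16.9, a gap of 22-fold. Lcn2, which withholds iron from bacteria, gave 1237 and 1294 against 11.3 and 2.7, and Hp, for haptoglobin, gave 814 and 866 against 4.9 and 5.1. The DKmix arrays were below the floor for both genes. The alarmin gene S100a8 gave 328 on β-catenin day 3, 13231 on eGFP day 3 and 27.7 and 13.3 in DKmix. S100a9, its partner, gave 290 and 28112 against 13.5 and 25.3. The eGFP array was far above the β-catenin array for both. The late granule genes Ltf and Camp overlapped because only the eGFP array exceeded the others. Ltf gave 8.4 and 4017 against 141 and 18.2, and Camp 28.9 and 943 against 13.1 and 15.6. The summed signal of the 7 defining neutrophil markers was 7475 on β-catenin day 3, 84496 on eGFP day 3, and 307 and 177 on DKmix at day 50 and day 300. For 8 defining mast cell markers the sums were 3463, 701, 1.51e+05 and 58845. In RNA from a mixed culture, fewer cells of a type and less RNA per cell cannot be told apart.

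Of 33 measured macrophage and dendritic cell genes, 9 were lower on DKmix and 0 higher, with a median difference of -1.10. Another 15 overlapped and 4 had both DKmix values above both day 3 values by less than 2-fold. Csf1r, the receptor for macrophage colony-stimulating factor, gave 2000 and 11798 at day 3 and 121 and 39.2 in DKmix, a gap of 16.5-fold. Mpeg1, for a pore-forming protein of phagocytes, gave 222 and 2568 against 5.7 and 8.0. The C-type lectin gene Clec4n and the transmembrane glycoprotein gene Gpnmb had gaps of at least 10.2-fold and 5.17-fold. Cd68, a lysosomal marker of macrophages, overlapped, at 469 and 163 at day 3, and 192 and 5407 on DKmix at day 50 and day 300. Tyrobp, an adaptor that many myeloid cells use, overlapped at 2563 and 14742 against 24353 and 14542. The list's median was -1.21 for DKmix day 300 minus β-catenin day 3 and -0.06 for DKmix day 50 minus eGFP day 3. Of 16 measured genes of MHC class II presentation, 6 were lower and 0 higher, with a median of -1.21. H2-Aa, a class II chain, gave 8397 and 1852 against 7.1 and 27.1, and H2-Eb1 gave 3102 and 470 against 9.5 and 16.8. Cd74, the invariant chain, gave 7680 and 1243 against 58.8 and 99.1, and H2-DMa, which helps to load peptide, gave 1718 and 2710 against 8.1 and 398. The β-catenin array was the brightest for 3 of these 4 genes. The other H2-DMa probe set had overlapping sides and a mean difference of the opposite sign. Ciita, the master regulator of class II genes, overlapped at 299 and 4.5 against 61.3 and 27.5. MHC class I presentation had 1 lower gene of 16 measured, the immunoproteasome subunit Psmb10, at 1597 and 704 against 282 and 232. The class I median was -0.52, and 0.027 without the DKmix day 50 array. Of 26 measured pattern recognition and Fc receptors, 4 were lower, Cd14, Tlr2, Ifih1 and Clec4e, and 1 higher, Fcer1g, with a median of -0.17. Their gaps were at least 3.03-fold for Cd14, 6.43-fold for Tlr2, 7.07-fold for Ifih1 and at least 12.5-fold for Clec4e.

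Of 34 measured myeloid and lymphoid transcription factors, 3 were lower, 3 higher and 19 overlapping, with a median difference of -0.30. Cebpa, required for granulocyte progenitors, gave 587 and 385 at day 3 and 108 and 3.3 in DKmix. Cebpd gave 252 and 1094 against 56.0 and 64.6, and Irf8, of macrophages and dendritic cells, gave 220 and 356 against 46.4 and 73.5. The higher genes were Jun, Bcl6, a repressor with signals of 15 and 72.4 against 183 and 162, and Zeb2, a repressor with 62.2 and 39.8 against 181 and 220. Zeb2 overlapped on the scale of the hybridisation controls (mean difference -0.10). Spi1, the gene of the myeloid factor PU.1, named here after its values were seen, gave 1804 and 1261 against 735 and 567, a gap of 1.72-fold. Of 30 measured stem and progenitor transcription factors, 1 was higher and 1 lower (3.33% each, near the 2.81% and 2.73% of all genes). Hes1, a Notch-responsive repressor, gave 121 and 43.7 against 432 and 330, and Sox4 gave 900 and 131 against 65.4 and 48.7, a gap of 2.01-fold. The Sox4 call was lost with arrays scaled to the median of genes above the floor (gap of -0.987 log2 units) and with the mean of its probe sets (-0.114), and only 1 of its 6 measured probe sets passed 2-fold. Their median was 0.29, and -0.41 on the scale of the hybridisation controls. Hoxa9, a homeobox gene of progenitors, overlapped, since it gave 1202 on β-catenin day 3, 34.5 on eGFP day 3, and 14.1 and 2.5 in DKmix. Among other LSK markers, Cd34 was higher on DKmix (804 and 112 against 2069 and 4293), Flt3 was below the floor on all 4 arrays, and Ly6a, the Sca-1 gene, was not analysed here.

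Promoters were read for genes of both kinds because factors that bind known motifs, GATA2 and MITF among them, differed between the sides. RefSeq promoters (GRCm38.p6, the 250 bases before each start) were found for 668 of the 858 genes, 347 higher and 321 lower. The GATA motif was searched as AGATAA or TGATAA on either strand, and the PU.1 motif as GAGGAAGT on either strand; neither overlaps the other. The GATA motif occurred in 12.9% of promoters of higher genes, 11.7% of those of lower genes, 10.97% of those of all measured genes and 16.6% of all promoters in the table. The PU.1 motif occurred in 2.19%, 3.17%, 2.38% and 2.44%. The E-box CACGTG, one form read by MITF, occurred in 8.11%, 6.83%, 7.66% and 6.02%, and the other form, CATGTG, in 6.36%, 9.02%, 8.39% and 12.2%. The interferon response motif occurred in 2.63%, 4.39%, 2.60% and 2.98%. All shares for the called genes lay within a few points of the background, and no factor's binding was measured. Promoters of 5 of the genes with the largest gaps are printed to show such matches, with GATA or PU.1 motifs in capitals. The 5 were chosen without a rule, so their matches say nothing beyond the shares above. Among the higher genes, that of Fcer1a (chr1:173227230-173227479, minus strand) holds 1 GATA match that starts 92 bases before the start, that of Slc18a2 (chr19:59260628-59260877, plus strand) holds 1 at 230 bases, and that of Cma1 (chr14:55944676-55944925, minus strand) holds neither motif. Among the lower genes, those of Prtn3 (chr10:79879417-79879666, plus strand) and Mpo (chr11:87793534-87793783, plus strand) each hold 1 PU.1 match, 95 and 224 bases before the start.
Fcer1a: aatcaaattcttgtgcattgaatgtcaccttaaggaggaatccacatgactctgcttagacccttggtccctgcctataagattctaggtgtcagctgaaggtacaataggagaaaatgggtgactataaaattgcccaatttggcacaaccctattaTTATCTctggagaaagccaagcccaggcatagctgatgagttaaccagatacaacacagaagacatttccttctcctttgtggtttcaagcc
Slc18a2: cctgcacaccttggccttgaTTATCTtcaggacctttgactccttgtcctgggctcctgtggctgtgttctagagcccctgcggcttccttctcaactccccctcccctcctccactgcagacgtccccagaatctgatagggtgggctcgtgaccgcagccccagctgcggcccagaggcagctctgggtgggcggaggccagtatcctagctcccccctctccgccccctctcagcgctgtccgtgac
Cma1: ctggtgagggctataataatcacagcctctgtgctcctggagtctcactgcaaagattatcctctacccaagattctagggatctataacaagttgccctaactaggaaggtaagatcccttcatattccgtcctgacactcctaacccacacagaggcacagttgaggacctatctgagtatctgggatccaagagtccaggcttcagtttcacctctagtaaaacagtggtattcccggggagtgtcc
Prtn3: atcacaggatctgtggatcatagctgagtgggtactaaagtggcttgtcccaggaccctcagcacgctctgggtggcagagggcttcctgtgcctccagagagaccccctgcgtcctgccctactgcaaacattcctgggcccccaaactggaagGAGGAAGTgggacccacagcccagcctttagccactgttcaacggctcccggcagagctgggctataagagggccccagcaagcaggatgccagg
Mpo: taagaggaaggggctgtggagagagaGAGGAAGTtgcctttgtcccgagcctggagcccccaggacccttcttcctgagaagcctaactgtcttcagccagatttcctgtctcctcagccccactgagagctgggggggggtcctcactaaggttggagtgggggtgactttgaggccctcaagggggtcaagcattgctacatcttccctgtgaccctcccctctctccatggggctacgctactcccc

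Signals between cells, and the receptors that read them, included genes on both sides. Of 27 measured chemokines and chemokine receptors, 7 were lower and 1, Ccl2, was higher, with a median difference of -1.10. Ccl9, a chemokine of myeloid cells, gave 3068 and 4111 at day 3 and 34.2 and 63.1 in DKmix, a gap of 48.6-fold. Ccl6 gave 826 and 5948 against 53 and 22, and Ccl3 gave 428 and 398 against 47.2 and 4.2. Cxcr4, the receptor that holds progenitors in the marrow, gave 215 and 653 against 11.9 and 2.9. So 2 chemokines of the CCL family sat at opposite extremes of the comparison. Among 36 measured cytokine receptors and JAK-STAT feedback genes, 2 were higher and 4 lower. The TGF-β receptor genes Tgfbr2 and Tgfbr1 gave 272 and 353 against 2262 and 1201, and 46.9 and 149 against 915 and 340. Lower were Csf1r, Tnfrsf1a, a receptor for tumour necrosis factor at 692 and 1912 against 52.7 and 7.5, the granulocyte colony-stimulating factor receptor gene Csf3r at 296 and 343 against 82.8 and 34.1, and Il6ra at 138 and 209 against 23.9 and 20.8. Among 27 measured ligands 3 were higher and 3 lower. Il4, a cytokine that mast cells release, gave 138 and 72.4 against 539 and 628, and Lif and Vegfc had gaps of 2.25-fold and 2.81-fold. Il1b gave 1278 and 129 against 6.4 and 53.6, its antagonist gene Il1rn gave 146 and 1256 against 11.5 and 4.4, and Ltb had a gap of 2.08-fold. The ligands' median was 0.09, and -0.45 on the scale of the hybridisation controls.

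Of 33 measured interferon-stimulated genes, 7 were lower and 0 higher, with a median difference of -0.996. Ifitm3, which blocks virus entry, gave 3447 and 1438 at day 3 and 326 and 11.6 in DKmix. The 2′-5′-oligoadenylate synthetase genes Oas1a, Oas2 and Oas3, sensors of double-stranded RNA, had gaps of 3.52-fold, at least 5.97-fold and 2.02-fold. Mx1, Isg20 and Cxcl10 were the other 3, with gaps of 2.41-fold, 3.01-fold and at least 3.80-fold. In all, 19 of the 33 had both DKmix values below both day 3 values, against 16.5% of all genes. Gbp6 overlapped with a value of 592 on DKmix day 300 against 127 and 40.1 at day 3 and 7.9 on DKmix day 50.

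Adhesion genes and markers of other lineages were mixed. Of 34 measured integrins and adhesion genes, 5 were lower and 3 higher (Itga2b, Itgb7 and Cd34), with a median of -0.53. Thy1, a surface glycoprotein, gave 2361 and 1189 at day 3 and 10.1 and 3.7 in DKmix. Cd24a gave 746 and 3098 against 3.9 and 1.4, and Itgb3 gave 497 and 504 against 28.8 and 26.9, although its other probe set overlapped with a mean of the opposite sign. Itgal and Itgax, leukocyte integrin chains, had gaps of 4.35-fold and at least 2.89-fold. Of 29 measured erythroid and platelet genes, Rab27b and Gp5 were higher, and Pf4, Thbs1 and Car2 were lower. Pf4, platelet factor 4, gave 770 and 1794 against 69.0 and 21.6, Thbs1, for thrombospondin, gave 2249 and 941 against 31.4 and 5.3, and Car2, a carbonic anhydrase, gave 4745 and 3218 against 497 and 57.1. Their median was 0.12, and -0.38 on the scale of the hybridisation controls. The globin gene Hba-a1 was at 67.0 or less on all 4 arrays, and the B cell gene Cd79a and the T cell gene Cd3e were below the floor on all 4. One lymphocyte gene of 23 measured, Cd79b, was lower, at 175 and 188 against 9.2 and 6.6, and 1 stromal gene of 21, Col4a2, was lower, at 204 and 184 against 42.3 and 50.6. Outside the lists, the largest gaps on the lower side included Tgm2, for transglutaminase 2, at 4467 and 3844 against 70.6 and 49.8, and Lsp1, a leukocyte actin-binding protein, at 1430 and 1664 against 43.5 and 32.5. App, the amyloid precursor gene, Lpl, for lipoprotein lipase, Slc15a3, a peptide transporter, and Plac8 followed with gaps of at least 21.1-fold, at least 17.1-fold, at least 16.2-fold and 18-fold.

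**Figure D3:**
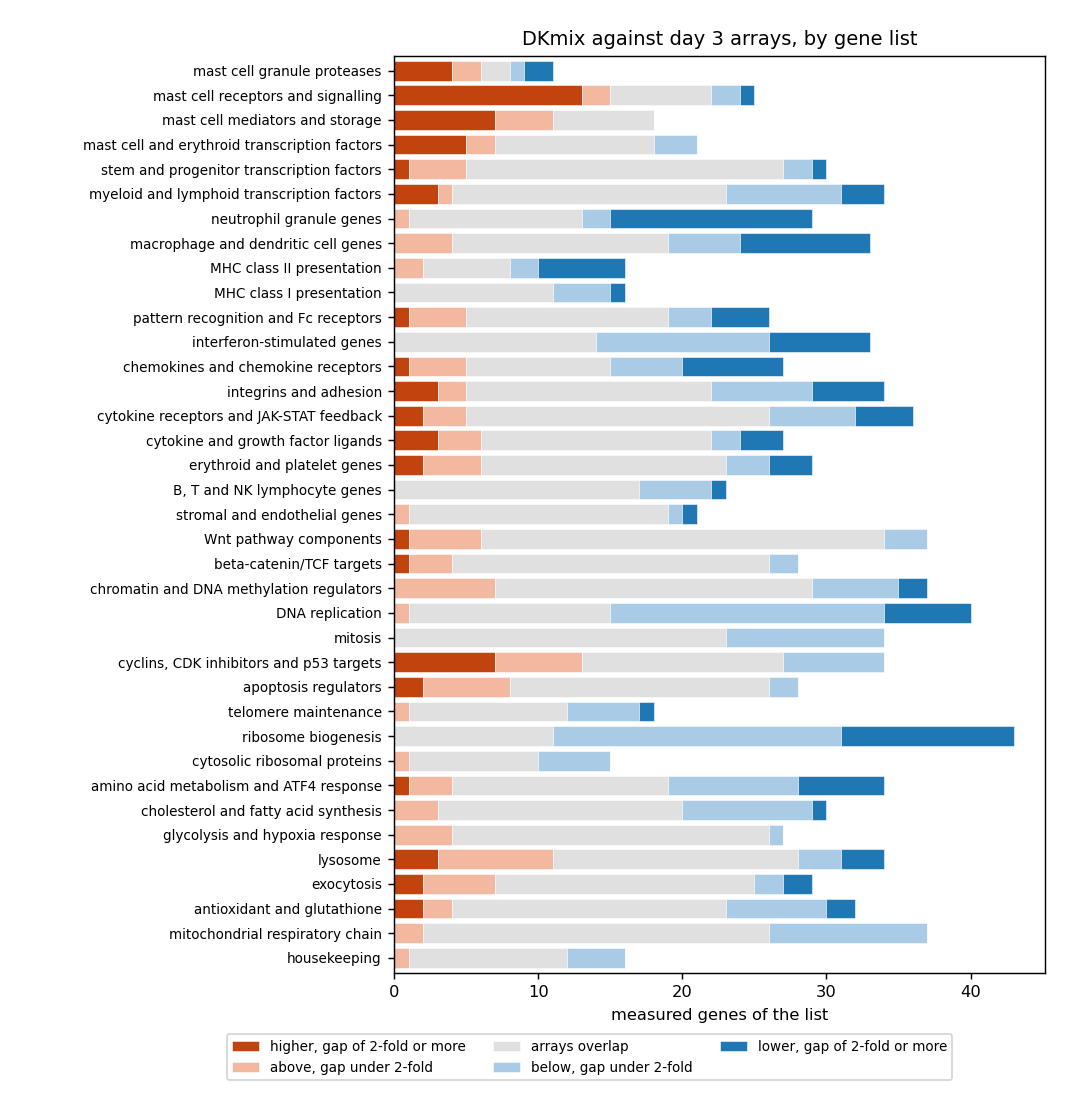
Measured genes of each of the 37 lists (horizontal axis), split by whether both DKmix arrays were above both day 3 arrays by at least 2-fold (dark red) or less (light red), overlapped (grey), or were below by less (light blue) or at least 2-fold (dark blue). Mast cell receptors hold 13 of 25 genes in dark red, and neutrophil granule genes 14 of 29 in dark blue; with arrays scaled to the hybridisation controls the first count is 8.

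Of 43 measured ribosome biogenesis genes, 12 were lower and 0 higher, with a median difference of -1.30. Both DKmix values lay below both day 3 values for 32 of the 43, against 16.5% of all genes. Nop56, a core protein of the particles that methylate ribosomal RNA, gave 3630 on β-catenin day 3, 3834 on eGFP day 3, and 760 and 732 on DKmix at day 50 and day 300. Its gap was 4.77-fold, with nearly equal arrays on each side. Rrp1b gave 1134 and 834 against 182 and 161, Noc4l 2058 and 1330 against 250 and 399, and Ebna1bp2 2004 and 2140 against 490 and 653. One further Ebna1bp2 probe set overlapped with the opposite sign. The list's median was -1.62 for DKmix day 300 minus β-catenin day 3 and -0.86 for DKmix day 50 minus eGFP day 3. Of 15 measured ribosomal proteins, 0 were higher or lower, and the median was -0.29.

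Of 40 measured DNA replication genes, 6 were lower and 0 higher, with a median difference of -0.86. Both DKmix values lay below both day 3 values for 25 of the 40, against 16.5% of all genes. Gins1, part of the replicative helicase, gave 727 and 961 at day 3 and 104 and 171 in DKmix, a gap of 4.25-fold. Pole, for the leading-strand polymerase, gave 609 and 757 against 180 and 199, and Mcm10 gave 679 and 560 against 184 and 183. Mcm4 and Mcm7, further helicase subunits, and Cdc45 had gaps of 2.42-fold, 2.28-fold and 2.04-fold. The 2 disjoint pairs gave the same list median, -0.87. With the arrays paired the other way it was -1.10 for DKmix day 50 minus β-catenin day 3 and -0.57 for DKmix day 300 minus eGFP day 3. For 34 measured mitosis genes, 0 passed 2-fold in either direction, 11 had both DKmix values below both day 3 values (against 16.5% of all genes) and 0 had both above. The median was -0.58, at 0.15 for DKmix day 300 minus β-catenin day 3 and -1.36 for DKmix day 50 minus eGFP day 3. Plk1, a mitotic kinase, shows the pattern: 1042 and 906 at day 3, and 75.5 and 968 on DKmix at day 50 and day 300. Among 37 chromatin and DNA methylation regulators, 2 were lower (5.41%, against 2.73% of all genes). Uhrf1, which guides maintenance methylation at replication, gave 681 and 660 against 287 and 267. Dnmt3b, a de novo methyltransferase, gave 432 and 193 against 78.1 and 57.9. Of 18 telomere genes, 1 was lower (5.56%), the telomerase and small nucleolar ribonucleoprotein subunit Nhp2, at 4536 and 5415 against 1194 and 1994.

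Several brakes on the cell cycle and p53 target genes were higher on DKmix. Of 34 measured cyclins, CDK inhibitors and p53 targets, 7 were higher and 0 lower, with a median difference of 0.46. On the scale of the hybridisation controls this turned to -0.28, with 0 higher and 6 lower. Ccng1, a p53-induced cyclin, gave 774 and 731 at day 3 and 2806 and 2513 in DKmix, a gap of 3.25-fold. Gadd45g, a stress-response gene, gave 132 and 117 against 951 and 537, Zmat3, a p53 target, gave 185 and 139 against 564 and 723, and Ccng2 gave 243 and 287 against 770 and 1055. Btg1, an antiproliferative gene, the retinoblastoma gene Rb1 and the CDK inhibitor gene Cdkn2c had gaps of 2.53-fold, 2.30-fold and 2.14-fold. Cdkn2a, the p16 and p19Arf locus, exceeded the floor on DKmix day 50 alone, at 288 against 7.7, 3.7 and 2.0. Of 28 measured apoptosis regulators, 2 were higher and 0 lower: Bbc3, the p53-induced PUMA gene, at 129 and 34.7 against 369 and 516, and the death receptor gene Fas at 22.2 and 39.7 against 128 and 166. Their median was 0.32, and -0.46 on the scale of the hybridisation controls.

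**Figure D4:**
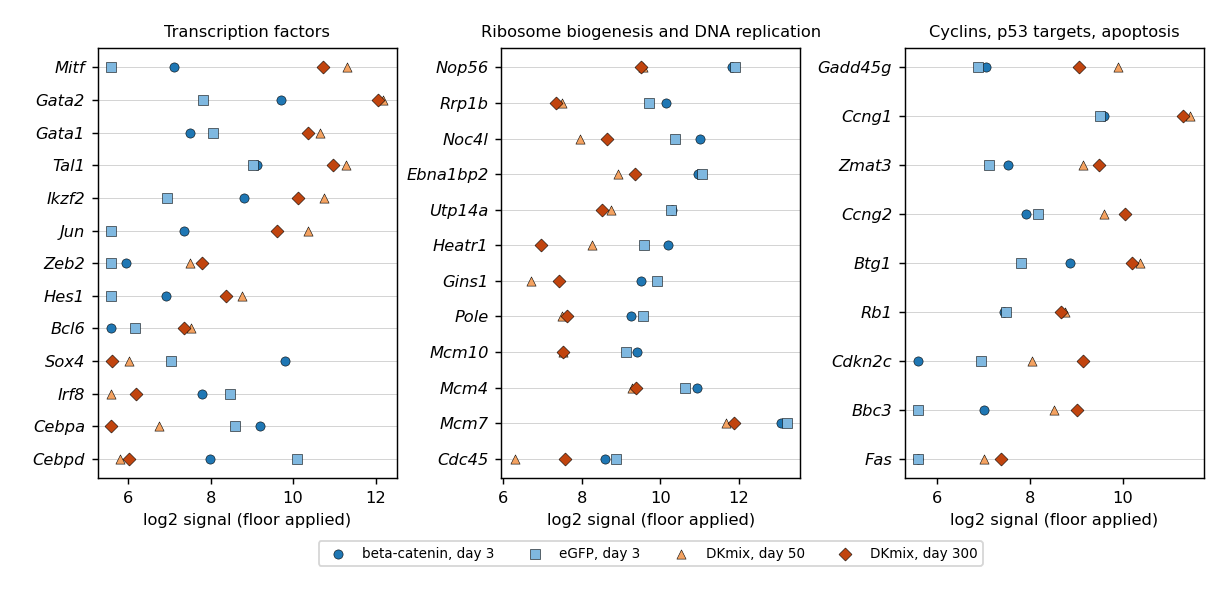
Log2 signal with the floor applied (horizontal axis) on each of the 4 arrays for the 13 transcription factor genes of 3 lists that passed 2-fold, for 6 of the 12 ribosome biogenesis and all 6 of the DNA replication genes that did, and for the 7 cyclin, CDK inhibitor and p53 target genes with 2 apoptosis genes. The 2 Nop56 points of each side nearly coincide; on the scale of the hybridisation controls the genes of the right panel are no longer 2-fold apart except Fas.

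Of 34 measured genes of amino acid metabolism and the ATF4 response, 6 were lower and 1 higher, with a median difference of -0.57. Phgdh, which begins serine synthesis, gave 6657 and 4137 at day 3 and 182 and 1242 in DKmix. Shmt1, of one-carbon metabolism, gave 1011 and 1248 against 287 and 102, and Eif4ebp1, a brake on translation, gave 1381 and 1282 against 206 and 387. Chac1, an ATF4 target, gave 209 and 146 against 6.9 and 52.5, and Mthfd1 and Mthfd1l, further one-carbon genes, had gaps of 2.53-fold and 2.17-fold. The higher gene was Ddit4, an inhibitor of mTORC1, at 956 and 499 against 2220 and 2600. Of 30 cholesterol and fatty acid synthesis genes, Srebf2 alone was lower, at 731 and 687 against 218 and 285, with its other probe set overlapping at the opposite sign. Among 32 antioxidant and glutathione genes, Prdx4 (254 and 177 against 855 and 2840) and Nqo1 (170 and 132 against 401 and 361) were higher. Mgst2 (473 and 6252 against 29 and 6.6) and Gsr (863 and 852 against 196 and 258) were lower, and the median was -0.24. Of 34 lysosome genes, Tpp1, Naglu and Ctsd were higher with gaps of 2.56-fold, 2.07-fold and 2.01-fold, and Ctsg, Ctss and Ctsh were lower. Their median was 0.46, and -0.33 on the scale of the hybridisation controls. No gene passed 2-fold among 27 genes of glycolysis and hypoxia, 37 of the respiratory chain and 16 housekeeping genes, whose medians were -0.15, -0.37 and -0.26.

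The 4 arrays can be joined into 2 pairs with no array in common: DKmix day 300 minus β-catenin day 3, both with low Gapdh 3′/5′ ratios, and DKmix day 50 minus eGFP day 3, both with high ones. Over 15481 genes, which are not independent replicates, the 2 differences had a Pearson correlation of 0.37 and a Spearman correlation of 0.24. Genes at least 2-fold up in both numbered 620, which is 34.5% of those up in the first pair and 27.7% of those up in the second. Genes at least 2-fold down in both numbered 613, or 32.7% and 28.6%. Another 296 genes went opposite ways by 2-fold. With the arrays joined the other way (DKmix day 50 minus β-catenin day 3, and DKmix day 300 minus eGFP day 3) the correlations were 0.26 and 0.13, with 581 genes up in both, 555 down in both and 530 opposite. Among the 435 higher genes the β-catenin day 3 value lay between eGFP and DKmix for 214 and the eGFP value lay between for 137, the rest being at the floor on both. The DKmix day 300 array was the farther from day 3 for 212 of them and DKmix day 50 for 223, so neither array led. For the 423 lower genes the β-catenin value lay between for 231 and the eGFP value for 192.

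**Figure D5:**
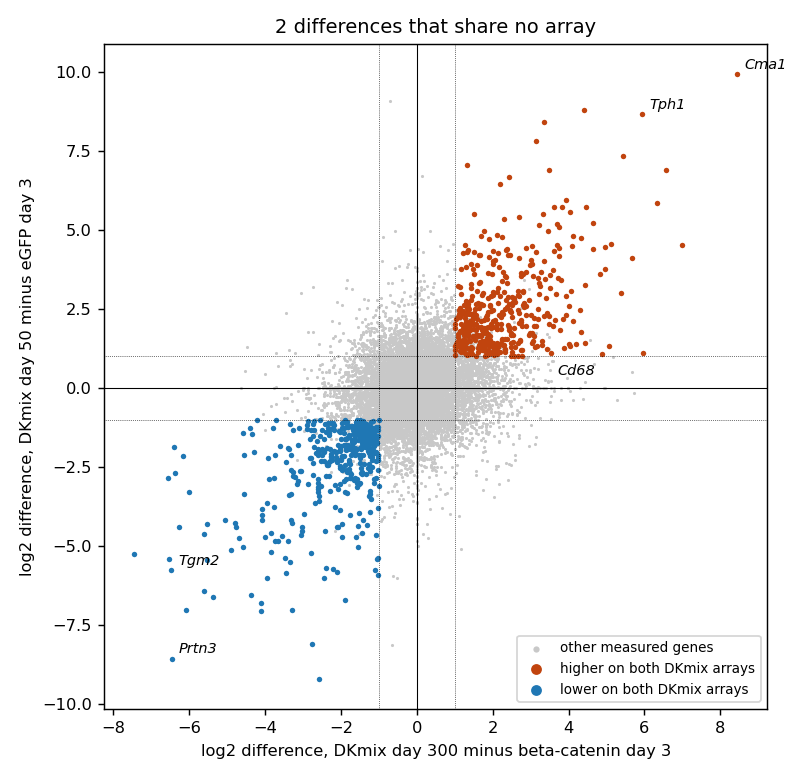
Log2 difference of each measured gene for DKmix day 300 minus β-catenin day 3 (horizontal axis) against that for DKmix day 50 minus eGFP day 3 (vertical axis), with genes higher on both DKmix arrays in red and lower in blue, and dotted lines at 2-fold. Coloured genes fall in the corner quadrants by their choice; 620 genes lie past both lines upwards and 613 downwards.

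Different probe sets of the same gene were the only repeated measurement on these arrays. The 435 higher genes had 437 further measured probe sets in 236 genes. Of those, 381 (87.2%) had a mean difference of the same sign, 109 (24.9%) passed 2-fold in the same direction and 0 passed it in the opposite one. The 423 lower genes had 348 further probe sets in 214 genes, of which 293 (84.2%) had the same sign, 67 (19.3%) passed 2-fold and 0 passed it the opposite way. The other probe sets are dimmer, since the brightest was taken for each gene.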

How the data were processed

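RNA of 4 mouse cell cultures was measured on 1 Affymetrix array each, with biotin-labelled cRNA made from total RNA, per the labels' protocols. The deposited values are linear signal intensities, 1 for each of 45101 probe sets and array, which the authors computed with MAS5 according to the submitters' processing notes. No version of it, no detection call and no genome build is given in the sources used here. Each array's mean after trimming 2% at either end is 150, so the deposited intensities were already scaled. Array medians were 49.6, 50.2, 54.9 and 39.7 for β-catenin day 3, eGFP day 3, DKmix day 50 and DKmix day 300, and having 4 arrays in all limits how precise any value is.

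Intensities under 48.3, the 50th percentile of all values pooled, were set to that floor before log2 was taken (Python 3.11.15, pandas 2.3.3, numpy 2.4.6, matplotlib 3.10.9). Probe sets were named through the platform annotation: 34945 had 1 symbol, 932 had several, 9160 had none and 64 were controls. Of those with 1 symbol, 34741 matched RefSeq through their Entrez number, and 0 symbols differed. Each gene was read from its brightest probe set by mean log2 over the arrays. Where the dimmer array was at the floor, a fold is marked "at least". Levels of different probe sets are not compared.

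Of 1143 genes in the 37 lists, 1035 matched, and 54 genes are in more than 1 list. The members and lists were chosen with earlier results of these data known. Genes were named by rule: Ctnnb1, the 15 largest gaps in each direction among genes whose brighter side exceeded 4 times the floor on both arrays, genes at the floor on both arrays of 1 side and above 16 times it on the other, and, per list, the 4 largest gaps in each direction and 3 overlapping members. Further called members, Spi1 and the genes next to the 2-fold limit were named after their values were seen. Counting was run on simulated data with bright genes, small noise and shifts well past the 2-fold limit. Such a run checks the code and says nothing of how reliable the calls are. The alternatives were 3 other scalings, 3 other floors, 2 other choices of probe set, 2 other gap limits and leaving out each array.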

Additional observations from a re-analysis of the deposited data

Results flagged for a closer look

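Among the 9160 probe sets with no gene symbol in the annotation used here, which no comparison above includes, 5979 exceeded the floor on at least 1 array. Of these, 45 (0.753%) were at least 2-fold higher on both DKmix arrays than on both day 3 arrays, and 28 of the 45 exceeded 4 times the floor on both DKmix arrays. Another 51 (0.853%) were at least 2-fold lower, 20 of them above 4 times the floor on both day 3 arrays. Among 27812 measured probe sets with 1 symbol, 650 were higher and 606 lower by the same rule, which are larger shares. The probe sets without a symbol are given only because the gene-level results leave them out.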

How the results depend on the processing

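Against the 435 genes higher and 423 lower on both DKmix arrays, quantile normalization gave 431 and 423. Scaling to the median of genes above the floor gave 435 and 428. The mean of all probe sets gave fewer, 290 and 296. Scaling to the hybridisation controls gave 146 and 1562, a floor at the 25th percentile 873 and 953, and no floor 1003 and 1047. A floor at the 75th percentile gave 294 and 253. The dimmest measured probe set gave 91 and 97 among 7055 genes, any gap above 0 gave 2384 and 2558, and a 4-fold gap 114 and 104. Leaving out 1 array, which leaves fewer values to clear, gave 770 to 1460 higher and 1000 to 1182 lower. Quantile normalization shared 802 of the 858 calls, the control scale 568, averaging all probe sets 549 and taking the dimmest 83. The mean difference of Zeb2 turned to -0.10 on the control scale. With the dimmest probe set, those of Ebna1bp2, H2-DMa, Itgb3, P2rx7 and Srebf2 turned to 0.034, 0.29, 0.068, -0.37 and 0.32, and the median of interferon-stimulated genes to 0.24. Leaving out 1 array put the MHC class I median between -1.01 and 0.027, the latter without the DKmix day 50 array. The cause of these turns was not tested. Of 518 list medians across settings, 448 moved by less than the spread between probe sets of a gene (0.47 log2 units, 1865 genes). Of 3207 differences of named genes, 2132 moved by less than that, 1069 moved by more and 6 turned. Of 130 named calls, 126 held under quantile normalization, 106 on the control scale and with the higher floor, and 109 with averaged probe sets. At a 4-fold gap 70 held, and with the dimmest measured probe set 17. Many genes drop out of the latter setting for want of a second measured probe set, and others lost their call in it. No paired analysis was possible because each group holds 1 array and the shared number 1 pairs nothing. Signal over background limits genes near the floor: 84 higher genes were at it on both day 3 arrays and 122 lower genes on both DKmix arrays.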

Other observations

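Some genes had nearly equal values within each side and a wide gap between the sides; they were picked after their values were seen and no test was made. Cyth3, an exchange factor for ARF GTPases, gave 188 on β-catenin day 3, 169 on eGFP day 3, and 1861 and 1942 on DKmix at day 50 and day 300. Prkca, for protein kinase C alpha, gave 137 and 122 at day 3 and 1228 and 1287 in DKmix. Lpin1, a phosphatidate phosphatase, gave 194 and 166 against 1095 and 1125, and Enah, an actin regulator, gave 245 and 300 against 2067 and 1910. Inpp5d, for the lipid phosphatase SHIP1, which restrains signals from Kit and FcεRI, gave 576 and 692 against 2650 and 2299. Bmp7, a bone morphogenetic protein, was below the floor on both day 3 arrays and at 448 and 459 in DKmix.

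In the other direction, Rpf2, a factor of large ribosomal subunit assembly, gave 757 and 707 at day 3 and 204 and 199 in DKmix. Ltbr, the lymphotoxin β receptor, gave 326 and 388 against 53.5 and 53.6, and Unc93b1, which carries nucleic-acid-sensing Toll-like receptors to endosomes, gave 560 and 489 against 79.6 and 66.4. Because all these genes were picked for near-equal values within a side and a wide gap between sides, their pattern restates that choice. The part of virus, day or RNA quality in it was not tested.

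The 2 DKmix arrays also lay on opposite sides of both day 3 arrays for some genes. In 22 genes DKmix day 50 was at least 2-fold above and DKmix day 300 at least 2-fold below both day 3 values, and in 26 genes the reverse held. These genes are averaged out in the mean of the 2 DKmix arrays.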
